A study of Mus musculus with 12 samples.

Results

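The 9 mRNAs described here, Map1b, App, Ptpn5, Bsn, Pclo, Ank2, Nf1, Huwe1 and Dgkz, are abundant brain transcripts long known to be bound by FMRP, the RNA-binding protein encoded by Fmr1. They were picked by name as well-known targets, by a rule that uses no measured value, though with earlier results of these data known. They are 9 of the 24079 genes in the count table and 9 of the 17823 genes tested. The study asked which mRNAs on the ribosomes of CA1 pyramidal neurons of the hippocampus change when FMRP is lost, the gene defect behind fragile X syndrome. Stranded RNA libraries were made from 6 pools of wild-type mice and 6 pools of Fmr1-/y mice, each a pool of 4 to 6 mice.

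The wild-type animals were Wfs1-CreERT2:RiboTag and the mutants Wfs1-CreERT2:RiboTag:Frm1 knockout (the spelling of the labels), all males aged 2 to 6 months on a C57BL/6J background. Both genotypes therefore carried the Cre recombinase under the Wfs1 promoter and the RiboTag allele, and both received tamoxifen at 100 mg/kg for 3 days, 1 week before dissection. Recombination puts an HA tag on the ribosomal protein Rpl22 in Wfs1-expressing neurons, and the tagged ribosomes were immunoprecipitated from whole hippocampi. What was measured is thus ribosome-bound mRNA, with no input fraction beside it, so that more mRNA and more ribosomes per mRNA cannot be told apart, nor can fewer cells of a type and less RNA per cell.

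FMRP sits on polyribosomes and binds mainly along the coding sequence of its targets, where it is known to slow elongating ribosomes. Its best known brain targets are long mRNAs that encode proteins of the synapse, the cytoskeleton and signalling pathways. Map1b, a microtubule-associated protein of growing axons and dendrites, was among the first to be identified, and App encodes the amyloid precursor protein. Short motifs that hold GGA have been proposed as one element of the RNA that FMRP recognises.

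Depth was 39400980 to 55745464 counted reads in the wild-type libraries (median 41711923) and 43106629 to 65565479 in the Fmr1-/y libraries (median 49579609). Fmr1 itself had 1971 to 2608 reads in the wild-type libraries, none in 5 of the mutant libraries and a single read in KO2. All 9 markers of CA1 pyramidal neurons were detected, with a summed level of 8744 to 10832 CPM (counts scaled to library size) in wild type and 8395 to 10017 CPM in Fmr1-/y. Most of that sum was Camk2a, itself a known FMRP target, at 5596 to 6659 CPM in wild type and 5450 to 6303 CPM in Fmr1-/y. Across all genes, 4 passed an edgeR adjusted p of 0.05, all of them lower in Fmr1-/y, while DESeq2 called 84, 53 lower and 31 higher, and edgeR 2 to 6 with a library left out. The member with the fewest reads in any library was Nf1, with 2687, which gives a counting error of 1.93%, so the spread between libraries, not depth, set the precision for these mRNAs.

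In GRCm38 the genes on the minus strand are Map1b (chr13:99421464-99516602), App (chr16:84952666-85175255), Ptpn5 (chr7:47077795-47134026), Bsn (chr9:108096022-108190419), Ank2 (chr3:126921607-127500347) and Dgkz (chr2:91932822-91976443). Those on the plus strand are Pclo (chr5:14514906-14863465), Nf1 (chr11:79339590-79581609) and Huwe1 (chrX:151800785-151935417). They were matched to the table by symbol, and the values below count reads over all exons of each gene, without a split by isoform.

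The coding sequences show what these transcripts offer to an RNA-binding protein. The letters AGGA and TGGA were counted on the coding strand in the GENCODE reference, overlapping copies included. The 9 coding sequences held 14.3 (Nf1) to 18.6 (App) copies per kilobase, beside a median of 16.2 over 16285 coding genes, so their density was near that of other genes. The number per coding sequence ranged from 222 copies in Pclo, 221 in Huwe1 and 191 in Ank2 to 43 in App and 27 in Ptpn5. The densest stretch of 60 coding bases is shown for 4 mRNAs that run from the richest to a more usual one, with the motif copies in capitals. It held 9 copies in Huwe1, where 1.31% of coding genes had a stretch with as many, 8 in App (2.14%), 6 in Bsn (9.84%) and 5 in Map1b (26.7%). Of the mRNAs not shown, Ptpn5 and Dgkz held 6 and Pclo 5. Ank2 and Nf1 held 4, where 59.6% of coding genes had as many. These shares were not matched for coding length, and a longer coding sequence holds more stretches to choose from.

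The Huwe1 stretch lies in exon 53 of 83 at chrX:151907015-151907074 on the plus strand, the App stretch in exon 6 of 18 at chr16:85056419-85056478 on the minus strand, the Bsn stretch in exon 5 of 12 at chr9:108115352-108115411 on the minus strand, and the Map1b stretch in exon 5 of 7 at chr13:99434488-99434547 on the minus strand, all in GRCm38 and read in the direction of the mRNA.
Huwe1: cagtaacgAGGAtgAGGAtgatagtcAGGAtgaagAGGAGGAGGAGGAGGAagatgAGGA
App: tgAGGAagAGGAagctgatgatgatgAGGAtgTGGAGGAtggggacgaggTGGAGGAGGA
Bsn: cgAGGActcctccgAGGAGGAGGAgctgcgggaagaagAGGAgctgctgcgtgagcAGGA
Map1b: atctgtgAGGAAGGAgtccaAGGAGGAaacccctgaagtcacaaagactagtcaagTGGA
The matches describe the letters of the reference and are not measured binding sites.

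None of the 9 mRNAs differed between genotypes past an adjusted p of 0.05. edgeR, DESeq2 and limma voom each called 0 of 9, where edgeR called 0.0224% of all genes and DESeq2 0.571%. At an unadjusted edgeR p under 0.05, 3 of 9 passed, Map1b and Nf1 on the lower side and Ank2 on the higher side, beside 7.96% of all genes (3.67% lower and 4.29% higher) and 9.46% of the 4448 genes with a mean of at least 50 CPM (6.16% lower and 3.3% higher). At that level DESeq2 gave 3 of 9 beside 8.47% of its genes, and limma voom 2 of 9 beside 7.89%. A log2 fold change below 0 was found for 7 of the 9, beside 48.6% of all genes and 55.3% of those with at least 50 CPM. In the longest quintile of the latter by exonic length, which holds 7 of the members, the share was 76.5%. Their median log2 fold change was -0.10, against 0.00 over all genes. For no member did the libraries of the 2 genotypes separate without overlap, which 0.623% of all genes did.

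**Figure D1:**
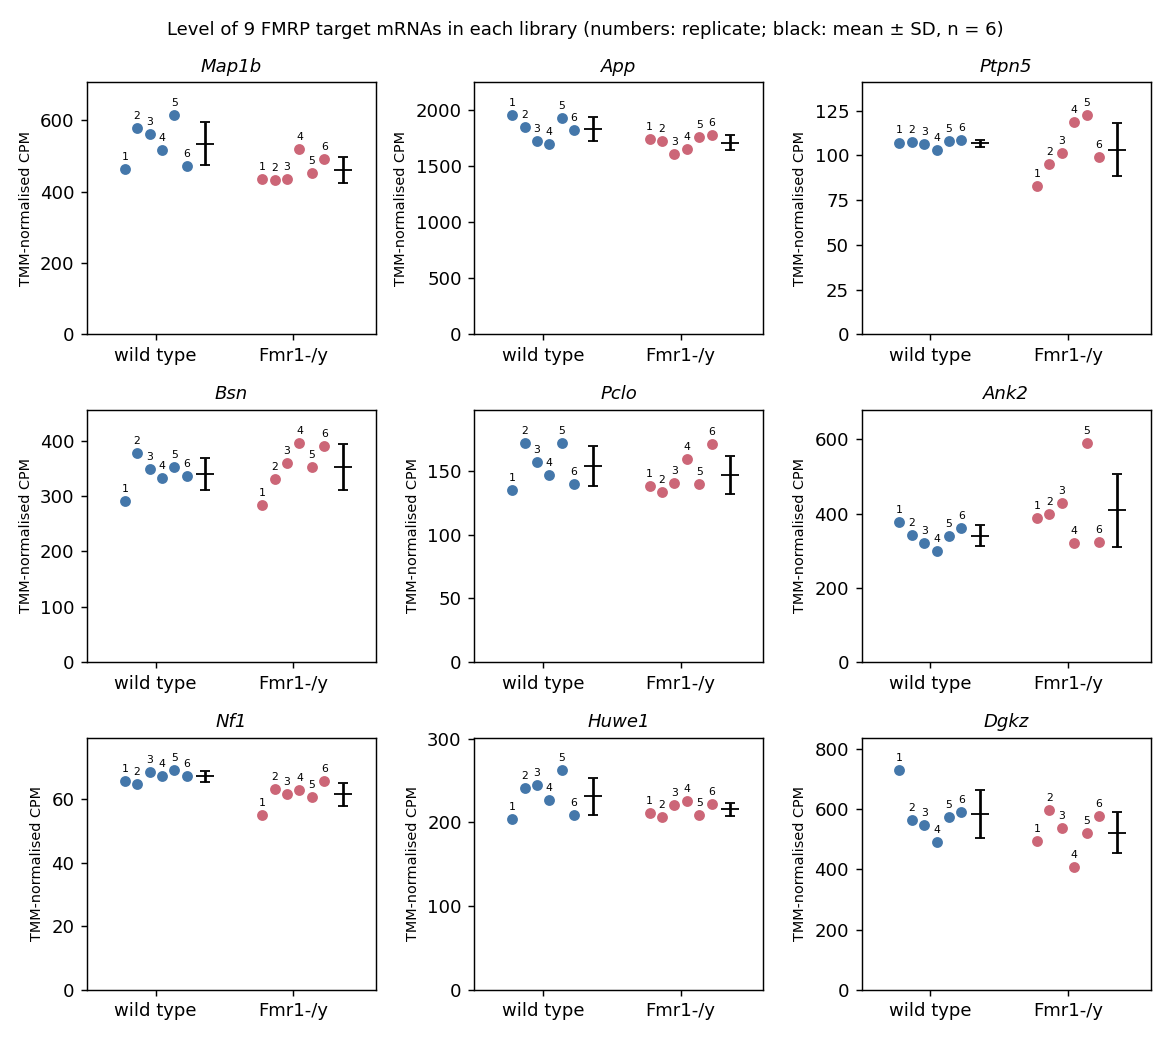
Each point is 1 library, numbered by replicate, with its TMM-normalised CPM on the vertical axis, which starts at 0, and the genotype on the horizontal axis. Black marks give the mean ± SD over 6 libraries. The genotypes overlap in all 9 panels; Map1b and Nf1 show most Fmr1-/y points under the wild-type range, and Ank2 has a single high Fmr1-/y library, KO5, at 591 CPM.

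Map1b had the lowest log2 fold change of the 9. It stood at 464 to 614 CPM in the wild-type libraries, with a median of 539, and at 432 to 520 CPM in the Fmr1-/y libraries, with a median of 444. Of the 6 mutant libraries, 4 lay under the lowest wild-type library and all 6 under the wild-type median, while the highest mutant library, KO4, sat well within the wild-type range. The mean was 535 ± 60.3 CPM (SD, n = 6) in wild type against 461 ± 36.4 CPM in Fmr1-/y, or 86.1% of wild type. The log2 fold change was -0.22 (95% interval -0.37 to -0.06, edgeR adjusted p = 0.444).

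Of 23 other microtubule-associated proteins and regulators, 0 passed the adjusted threshold in edgeR, DESeq2 or limma voom. At an unadjusted p under 0.05, 1 was lower and 2 were higher, and the median log2 fold change was -0.01. The shares over all genes at that level, 3.67% lower and 4.29% higher, are the background for each list below. Map1a, the adult relative of Map1b, had a log2 fold change of -0.12 (-0.05 without WT5), the dendritic Map2 one of -0.03 and the axonal Mapt, which encodes tau, one of -0.02. The smallest p in the list belonged to Dclk2, a doublecortin-like kinase, at 107 ± 7.65 CPM in wild type against 94.2 ± 10.4 CPM in Fmr1-/y (log2 fold change -0.18, edgeR adjusted p = 0.539).

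Ank2, which encodes ankyrin-B, the adaptor that ties membrane proteins to the spectrin skeleton, was the member with the largest difference and the only one with an interval above 0. Its wild-type libraries ranged from 299 to 377 CPM (median 342). Its Fmr1-/y libraries stood at 389 CPM in KO1, 399 in KO2, 428 in KO3, 321 in KO4, 591 in KO5 and 324 in KO6. Of these, 4 were above the wild-type maximum, KO4 and KO6 lay inside the wild-type range, and KO5 stood 1.38-fold above the next highest library. The log2 fold change was 0.26 (95% interval 0.02 to 0.51, edgeR adjusted p = 0.595).

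KO5 carried much of that difference. Without it the log2 fold change of Ank2 was 0.13 (95% interval -0.05 to 0.31, edgeR adjusted p = 0.861). The interval of Ank2 also included 0 without KO3, WT2, WT3, WT4 or WT5, where the log2 fold change was 0.23 (WT4) to 0.27 (WT2). In limma voom and in the robust edgeR fit the interval included 0 as well. Among the 4448 genes with at least 50 CPM, Ank2 ranked 16 by how far KO5 exceeded the next highest library. The spectrins Sptbn1 (rank 3, 1.70-fold) and Sptan1 (rank 4, 1.66-fold) ranked higher still, and the nuclear long noncoding RNA Malat1 ranked first, at 719 CPM in KO5 against 197 to 403 CPM in the other Fmr1-/y libraries. Malat1 and the next gene named, Akap8l (rank 2, 1.71-fold), a nuclear matrix-associated protein, were singled out after their values were seen.

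**Figure D2:**
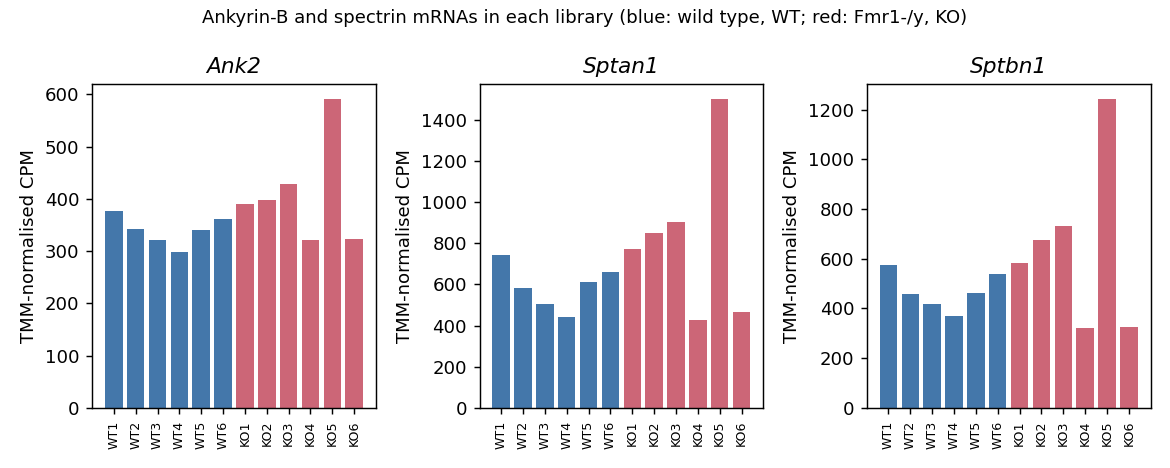
Bars give the TMM-normalised CPM of Ank2 and of the spectrin mRNAs Sptan1 and Sptbn1 in each of the 12 libraries, with wild type in blue and Fmr1-/y in red, on axes that start at 0. The 3 mRNAs run in parallel, with KO5 highest and WT4, KO4 and KO6 among the lowest in each panel.

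Ank2 and the spectrins tracked each other across the libraries, with and without the extreme ones. Over the 12 libraries, after centring within each genotype, Ank2 correlated with Sptan1 at r = 0.98 (rho = 0.95, permutation p = 1e-05, the smallest that 100000 permutations can give), and r stayed at 0.97 without the 2 libraries farthest from the median. The correlation was 0.99 within wild type and 0.98 within Fmr1-/y. With Sptbn1 r was 0.97, and both relations had an adjusted permutation p of 1e-05.

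The spectrin means were also higher in Fmr1-/y, within the spread of the libraries. Sptan1, the alpha subunit of the brain heterotetramer, stood at 443 to 742 CPM in wild type against 425 to 1501 CPM in Fmr1-/y. Its log2 fold change was 0.48 (edgeR adjusted p = 0.634) and 0.21 without KO5. Sptbn1, the main beta subunit, had 0.46 with all libraries and 0.17 without KO5. Of 13 ankyrin and spectrin genes tested (Sptbn5 is not among the genes of the table), 0 passed the adjusted threshold in any of the 3 tools. At an unadjusted p under 0.05 only Epb41l3, listed in the table as Epb4.1l3, passed, on the lower side, with a log2 fold change of -0.14 and an edgeR adjusted p of 0.512. Ank3, which encodes ankyrin-G of the axon initial segment, had a log2 fold change of 0.08.

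Bsn and Pclo encode bassoon and piccolo, the giant scaffolds of the presynaptic active zone. Bsn ranged from 292 to 377 CPM in wild type (median 342) and from 283 to 396 CPM in Fmr1-/y (median 356), so the mutant range enclosed the wild-type one. Its log2 fold change was 0.05 (95% interval -0.12 to 0.22, edgeR adjusted p = 0.936). Pclo ranged from 135 to 172 CPM in wild type (median 152) and from 133 to 171 CPM in Fmr1-/y (median 140), with a log2 fold change of -0.07 (95% interval -0.23 to 0.10, adjusted p = 0.910).

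Neither mRNA separated the genotypes. Of 21 other active zone genes, 0 passed the adjusted threshold in any of the 3 tools, and 2 were lower and 1 higher at an unadjusted p under 0.05. Rims1, Erc2 and Unc13a, which organise and prime vesicles at release sites, each had a log2 fold change of -0.04. Git1, an adaptor that binds piccolo, had the smallest p, at 512 ± 42.6 CPM in wild type against 428 ± 47.0 CPM in Fmr1-/y (log2 fold change -0.26, edgeR adjusted p = 0.332).

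App was the most abundant of the 9, per library and per kilobase. It stood at 1696 to 1954 CPM in wild type (median 1836) against 1605 to 1780 CPM in Fmr1-/y (median 1729). Each of the 6 mutant libraries lay under the wild-type median, yet 4 of them were inside the wild-type range. The log2 fold change was -0.10 (95% interval -0.21 to 0.02, edgeR adjusted p = 0.705), an mRNA level 93.4% of wild type.

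Of 22 genes of the APP family, its secretases and adaptors, 0 passed the adjusted threshold in any of the 3 tools and 1 was lower and 1 higher at an unadjusted p under 0.05, with a median log2 fold change of -0.01. The relatives Aplp1 and Aplp2 had log2 fold changes of -0.01 and 0.07, and Bace1, the beta-secretase, -0.08. Sorl1, which encodes a sorting receptor that steers APP away from its secretases, had the smallest p, with 151 ± 15.4 CPM in wild type against 127 ± 8.04 CPM in Fmr1-/y (log2 fold change -0.24, edgeR adjusted p = 0.325).

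The other members act in signalling and protein turnover. Ptpn5 encodes STEP, the striatal-enriched tyrosine phosphatase that dephosphorylates glutamate receptors and the kinase Fyn. It varied little among wild-type libraries, at 103 to 108 CPM (median 107), and widely among Fmr1-/y libraries, at 82.7 CPM in KO1, 95.2 in KO2, 101 in KO3, 119 in KO4, 122 in KO5 and 99.0 in KO6. Of the mutant libraries 4 were under the wild-type minimum and 2 above the wild-type maximum, and the means differed by less than that spread (107 ± 1.98 CPM against 103 ± 14.98 CPM, log2 fold change -0.05, edgeR adjusted p = 0.942). Whether the spread itself differed between genotypes was not tested.

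Around Ptpn5, 0 of 14 relatives and substrates passed the adjusted threshold in any of the 3 tools. At an unadjusted p under 0.05, 2 were lower (Gria2 and Grin2b, both receptor subunits) and 2 higher. Gria2 stood at 704 ± 27.2 CPM in wild type against 628 ± 29.9 CPM in Fmr1-/y (log2 fold change -0.17, edgeR adjusted p = 0.378). Grin2b had a log2 fold change of -0.30 and Fyn one of -0.08.

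Nf1 encodes neurofibromin, a GTPase-activating protein that switches RAS off. It was the tightest of the 9 in wild type after Ptpn5, at 64.8 to 69.0 CPM (median 67.1), and lay at 54.8 to 65.6 CPM in Fmr1-/y (median 62.3). Of the mutant libraries 5 were under the wild-type minimum and all 6 under its median, with KO1 the lowest and KO6 just inside the wild-type range. The log2 fold change was -0.13 (95% interval -0.25 to -0.01, edgeR adjusted p = 0.5999), so the level was 91.6% of wild type.

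Neurofibromin acts among many regulators of RAS. Of 25 of these and of the RAS and RAF genes, 0 passed the adjusted threshold in any of the 3 tools, with a median log2 fold change of -0.05. At an unadjusted p under 0.05, 6 were lower and 0 higher, beside 3.67% and 4.29% of all genes. Rasa1, a second RAS GTPase-activating protein, stood at 37.8 ± 2.24 CPM in wild type against 32.1 ± 2.57 CPM in Fmr1-/y (log2 fold change -0.24, edgeR adjusted p = 0.358). Spred2, a partner of neurofibromin that holds it at the membrane, had the smallest p, with a log2 fold change of -0.30 and an edgeR adjusted p of 0.301.

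Dgkz encodes diacylglycerol kinase zeta, which turns the lipid messenger diacylglycerol into phosphatidic acid. Its wild-type libraries ranged from 490 to 730 CPM (median 569) and its Fmr1-/y libraries from 408 to 599 CPM (median 530). WT1 was the high library, 1.22-fold above the next highest and ranked 3 of 4448 genes in how far WT1 stood out, and KO4 was the low one. The log2 fold change was -0.16 (95% interval -0.36 to 0.04, edgeR adjusted p = 0.740), and leaving out WT1 gave -0.08.

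Of 11 other diacylglycerol kinases and lipases, 0 passed the adjusted threshold in any of the 3 tools. At an unadjusted p under 0.05, 3 were lower and 0 higher, beside 3.67% and 4.29% of all genes. Dagla, the lipase that makes the endocannabinoid 2-AG from diacylglycerol, stood at 190 ± 9.18 CPM in wild type against 161 ± 23.9 CPM in Fmr1-/y (log2 fold change -0.24, edgeR adjusted p = 0.444). Dgkb had a log2 fold change of -0.21 and Dgki one of -0.20. The list's median was -0.12, but 0.0013 without KO1, -0.043 without WT5 and 0.0056 with the score of non-neuronal markers in each library as a covariate.

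Huwe1 encodes a giant HECT-type ubiquitin ligase. It ranged from 204 to 262 CPM in wild type (median 233) and from 206 to 225 CPM in Fmr1-/y (median 216), so every mutant library was under the wild-type median and inside the wild-type range. The log2 fold change was -0.10 (95% interval -0.23 to 0.03, edgeR adjusted p = 0.764). Of 24 other HECT-type ligases, 0 passed the adjusted threshold and 0 an unadjusted p under 0.05, in each of the 3 tools. Ube3a, the ligase lost in Angelman syndrome, and Herc1 each had a log2 fold change of -0.01, Trip12 had 0.07 and Hace1, with the smallest p, 0.11.

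**Figure D3:**
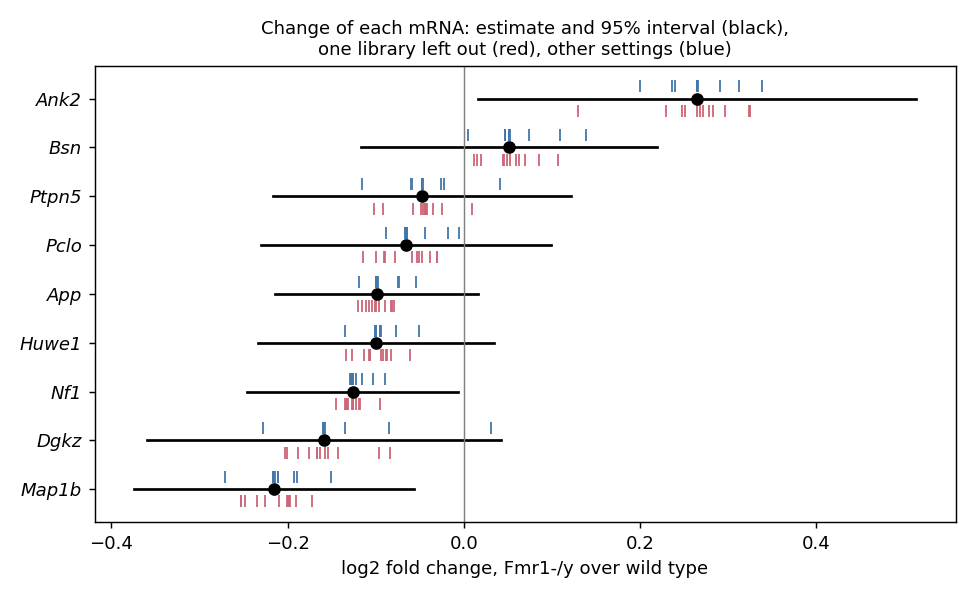
Black points and lines give the log2 fold change of each mRNA, Fmr1-/y over wild type, with its 95% interval from edgeR. Red ticks give the value with 1 library left out and blue ticks the value under other settings. Only Map1b, Nf1 and Ank2 have an interval that leaves out 0, and Ank2 has 1 red tick, at 0.13, well under its others.

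Per kilobase of exon the 9 mRNAs spanned a wide range of levels. In wild type App stood at 224 ± 12.8 CPM per kilobase, followed by Dgkz (120 ± 16.5), Map1b (37.5 ± 4.23), Ptpn5 (29.8 ± 0.554), Bsn (21.3 ± 1.78), Ank2 (19.3 ± 1.59), Huwe1 (15.9 ± 1.52), Pclo (6.97 ± 0.718) and Nf1 (5.61 ± 0.135). The ranges of neighbours in this order did not overlap in wild type, except those of Bsn with Ank2 and of Ank2 with Huwe1. In Fmr1-/y the order was the same but for Ank2 (23.2 ± 5.62) and Bsn (22.1 ± 2.62), which changed places, and the ranges of Map1b with Ptpn5, Ptpn5 with Ank2 and Ank2 with Bsn overlapped. The Fmr1-/y mean of Ank2 includes its single high library, KO5, at 33.5 CPM per kilobase, so the exchange of places is not a firm result.

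Most of the 9 mRNAs were long. Of the 9, 7 were in the longest quintile of all genes by exonic length, with Pclo the longest at 22.1 kb, and Ptpn5 the shortest at 3.58 kb. Length and the difference between genotypes moved together over all genes. Among the genes with at least 50 CPM, the median log2 fold change went from 0.03 in the shortest quintile to -0.06 in the longest, and the share lower at an unadjusted p under 0.05 went from 0.790% to 13.3%.

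Genes of like length give a nearer background for the 9. In the longest quintile 2 of 7 members were lower at that level, beside 13.3% of its 886 genes, and their median was -0.10 beside -0.06. A log2 fold change below 0 was found for 76.5% of those 886 genes, and for all members there but Bsn and Ank2. Relative to the median of its own quintile, Map1b stood at -0.15, Dgkz at -0.12, Nf1 at -0.06, App and Huwe1 at -0.04, Ptpn5 at -0.03 and Pclo at 0.00 on the log2 scale, while Bsn stood at 0.11 and Ank2 at 0.33. Ank2 was thus at percentile 99.0 of the long abundant genes and Map1b at percentile 6.21.

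The level of long against short mRNAs also varied between libraries of 1 genotype. The median of the longest quintile minus that of the shortest, in log2 CPM centred on each gene's mean, ran from -0.18 to 0.20 in wild type (median 0.14) and from -0.22 to 0.20 in Fmr1-/y (median -0.09). WT1, WT6, KO1, KO2, KO5 and KO6 were below 0 and the other 6 libraries above. The genotypes differed by -0.09 (exact permutation test, two-sided, p = 0.372), within the spread of the libraries.

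**Figure D4:**
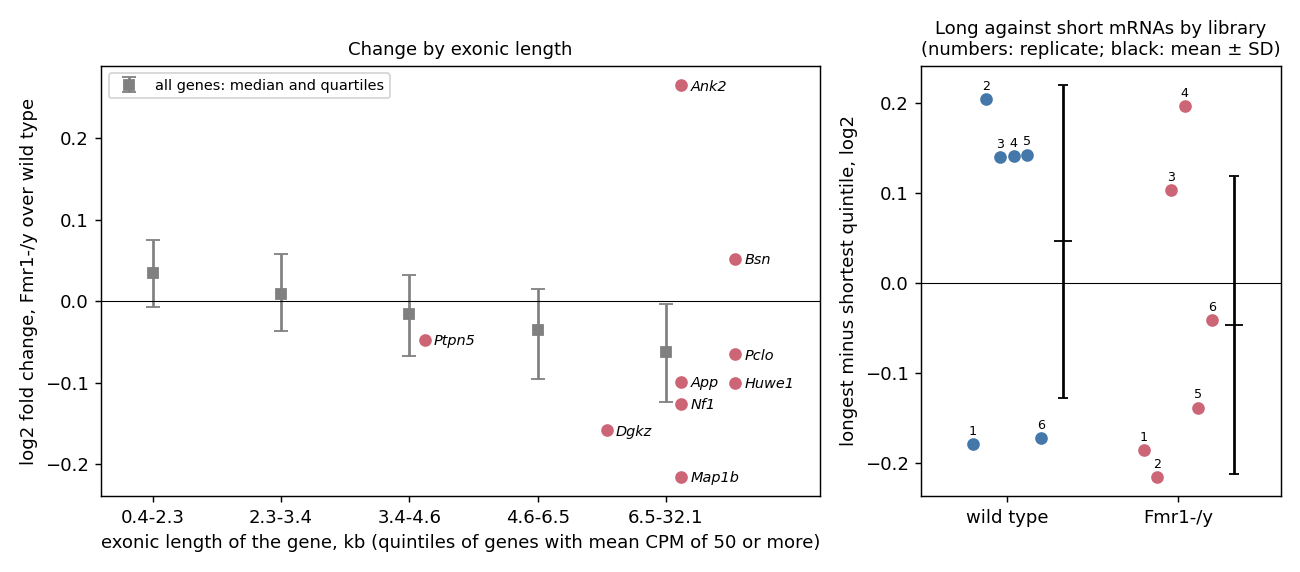
The left panel gives the log2 fold change, Fmr1-/y over wild type, for quintiles of the genes with a mean of at least 50 CPM, ordered by exonic length in kilobases, as median and quartiles in grey, with the 9 mRNAs in red. The right panel gives, for each library, the log2 level of the longest quintile minus that of the shortest, with mean ± SD in black. The medians fall from 0.03 to -0.06 with length, Ank2 and Bsn sit above the median of their quintile, and the libraries of both genotypes spread over about the same range.

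Some members followed this measure from library to library, and others did not. After centring within each genotype, Huwe1 correlated with it at r = 0.80 (rho = 0.82, permutation p = 0.00135, adjusted over the 9 relations 0.0121), Map1b at 0.78 (adjusted permutation p = 0.0254), Bsn at 0.72 (0.0254) and Pclo at 0.70 (0.0429). Dgkz ran against it at -0.67 (adjusted permutation p = 0.0429, and 0.0833 for rho). Without the 2 libraries farthest from the median these values were 0.64, 0.63, 0.72, 0.56 and -0.60. The longest quintile includes 7 of the members, among 886 genes. Of these members, App and Ank2 had a negative r, at -0.52 (adjusted permutation p = 0.152) and -0.45 (0.202). Nf1, also in that quintile, had r = 0.30 (adjusted permutation p = 0.399). Ptpn5, which is outside it, had r = 0.31 (0.399). Being long was thus not enough for a member to follow the measure.

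With this measure as a covariate, a fit added after the data were seen, the log2 fold change of Map1b was -0.15 (edgeR adjusted p = 0.326) and that of Dgkz -0.23 (edgeR adjusted p = 0.280). Ank2 then had 0.20, with an interval from -0.03 to 0.43, and 0 of 9 passed the adjusted threshold. At an unadjusted p under 0.05, 4 of 9 passed, Dgkz, Map1b, App and Nf1, all on the lower side, while Ank2 did not. The share of all genes at that level was not counted for this fit, so the count has no background beside it. What sets the measure in a library was not tested.

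The same 4 long mRNAs also varied together. Of the 36 pairs of members, 5 had an adjusted permutation p under 0.05, and all 5 were among Map1b, Pclo, Huwe1 and Bsn. Map1b and Pclo, an axonal microtubule protein and an active zone scaffold, had r = 0.92 (rho = 0.92, permutation p = 0.00038, adjusted p = 0.00684), 0.98 within wild type and 0.87 within Fmr1-/y, and 0.92 without the 2 farthest libraries. Map1b and Huwe1 had r = 0.91, Pclo and Huwe1 0.82, Bsn and Pclo 0.77 and Map1b and Bsn 0.72. App and Map1b had no such relation (r = -0.02, adjusted permutation p = 0.948). All pairs share the same 12 libraries.

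Over the mean of all 9, centred within genotype, the genes with the most similar pattern among 9684 others with a mean of at least 10 CPM were Syt1, Adam22 and Synpo. Their r over 12 libraries was 0.92, 0.90 and 0.89, and 0.80, 0.89 and 0.72 without the 2 farthest libraries. Syt1 encodes the calcium sensor of vesicle release, Adam22 a synaptic receptor of Lgi1 and Synpo the spine apparatus protein synaptopodin. Their log2 fold changes between genotypes were -0.02, -0.02 and -0.01.

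A wider group of known FMRP targets was counted in the same way. Of 37 others, chosen as the 9 were with earlier results of these data known, 0 passed the adjusted threshold in edgeR, DESeq2 or limma voom. At an unadjusted edgeR p under 0.05, 13 were lower and 1 was higher, beside 3.67% and 4.29% of all genes. Among genes with at least 50 CPM those shares were 6.16% and 3.3%. The median log2 fold change of the 37 was -0.11. The 13 became 8 with the CA1 score as a covariate, 6 with the non-neuronal score and 8 without KO1, and the median became -0.06, -0.04 and -0.09, while without WT5 it was -0.07. How many of all genes were lower at that level was not counted for those fits, so these changes have no background beside them. The markers of the CA1 score include Camk2a, which is one of the 37, so that score is not independent of the list. At an unadjusted p under 0.05, DESeq2 gave 15 in all and limma voom 15, beside 8.47% and 7.89% of their genes. Cacna1e, a calcium channel subunit, had the smallest p, at 108 ± 9.64 CPM in wild type against 90.7 ± 7.54 CPM in Fmr1-/y (log2 fold change -0.25, edgeR adjusted p = 0.321).

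Other genes among these 14 are named after their values were seen. They include the glutamate receptor subunits and receptors Grin2a (log2 fold change -0.47), Grin2b (-0.30) and Grm5 (-0.14), the postsynaptic scaffolds Shank1 (-0.28), Shank3 (-0.25), Shank2 (-0.21) and Dlg4 (-0.16), the GTPase-activating protein Agap2 (-0.21), the calcium channel subunit Cacna1a (-0.18) and the adhesion receptor Celsr2 (-0.14). Ncan, a proteoglycan of the perineuronal matrix, was the one on the higher side (0.12). Agap2 was the only one of the 37 with no overlap, at 1478 to 1570 CPM in wild type against 1163 to 1451 CPM in Fmr1-/y. Of all genes, 0.623% had no overlap. In the longest quintile of genes with at least 50 CPM, 8 of 25 of these targets were lower at that level, beside 13.3% of all genes there.

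**Figure D5:**
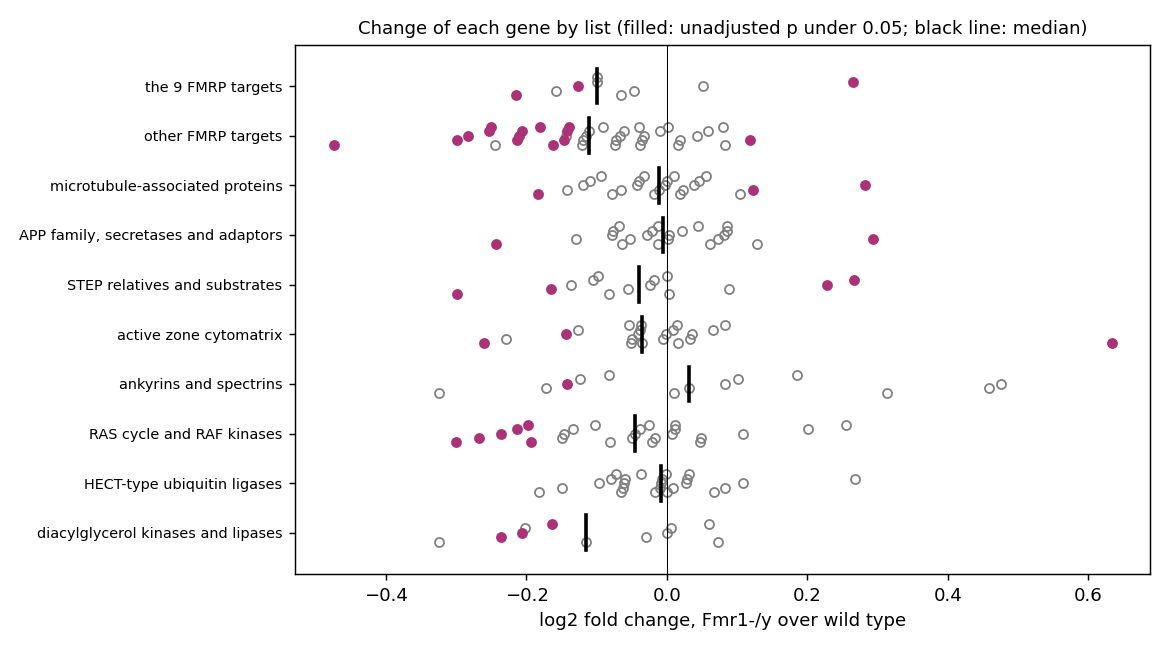
Each circle is 1 gene, placed by its log2 fold change, Fmr1-/y over wild type, in the row of its list. Filled circles have an unadjusted edgeR p under 0.05, and black lines mark each list's median. The 9 mRNAs, the other FMRP targets and the diacylglycerol kinases and lipases have medians of -0.10, -0.11 and -0.12, the last of which is 0.0013 without KO1, and no gene in any row passed the adjusted threshold.

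Markers of the cell types of the hippocampus were read beside these results, and 0 of them passed the adjusted threshold in edgeR, DESeq2 or limma voom. All 9 CA1 markers had log2 fold changes below 0 (median -0.15, 3 lower at an unadjusted p under 0.05, among them Wfs1). Of all genes, 3.67% were lower and 4.29% higher at that level. All 6 astrocyte markers (1827 to 2132 CPM in sum in wild type, 1951 to 2858 CPM in Fmr1-/y), 5 of 5 endothelial markers (35.1 to 50.6 and 45.3 to 66.7 CPM) and 5 of 5 choroid plexus markers (6374 to 11856 and 8299 to 17487 CPM) had values above 0, with 3 of each list higher at that level. The lists for CA2, CA3 and dentate granule neurons, interneurons, oligodendrocytes and microglia had median log2 fold changes from -0.28 (dentate granule, 4 of 4 below 0) to 0.10 (CA2). No marker was at 0 in any library. The non-neuronal score averaged the astrocyte, oligodendrocyte, microglia, endothelial and choroid plexus markers. Of these lists the oligodendrocyte one went the other way, with 5 of 6 below 0 (median -0.16). The standardised CA1 score averaged 0.47 in wild type and -0.47 in Fmr1-/y, the non-neuronal score -0.47 and 0.47. Both scores thus differed between genotypes, so as covariates they can take up part of the genotype difference. With the CA1 score of each library as a covariate the log2 fold change of Dgkz was 0.03 in place of -0.16, that of Map1b was -0.27, that of Ank2 0.31 and that of Nf1 -0.12. With the non-neuronal score, Dgkz stood at -0.08, Map1b at -0.19, Ank2 at 0.34, Nf1 at -0.09, Bsn at 0.14 and Ptpn5 at 0.042, and under either score 0 of 9 passed the edgeR adjusted threshold.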

How the data were processed

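The authors sequenced single-end reads of 50 bases, aligned them to mm10 with TopHat2 2.1.1 and Bowtie2 2.2.8, discarded alignments with more than 3 mismatches and deposited raw counts per gene from HTSeq 0.6.1p1, union mode, on the strand opposite to the read. Genes with at least 15 reads in total were tested here with edgeR 4.0.16 (TMM, quasi-likelihood test, no covariate), run in R 4.3.3, and p-values were adjusted by the Benjamini-Hochberg method over all 17823 genes, with a threshold of 0.05. DESeq2 1.42.0 and limma 3.58.1 voom were alternatives. Levels are TMM-normalised CPM, and the SE is the log2 fold change over the square root of F. The members, gene lists and tests were chosen with earlier results of these data known. Named genes are the members, the gene of smallest p in each list, up to 3 list genes closest in role, and the 3 genes of most similar pattern. GENCODE M21 gave exonic lengths for 16618 genes, all members included. Bsn overlaps a microRNA gene on its own strand by 57 bases. No libraries were duplicates: within a genotype, the smallest chi-square over its degrees of freedom was 10.8. The scripts were tested on simulated data. P-values measure the spread between pools. The values of some list genes are not reported here.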

Additional observations from a re-analysis of the deposited data

Results flagged for a closer look

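A library was picked out where its gap to the nearest other library of its genotype took up a share of the genotype's range above Dixon's critical value. This was tested in 84 groups of 6 libraries, where chance gives about 4.2, and 2 were picked out, neither of them a member. In the Fmr1-/y libraries Fmr1 had 1 read in KO2 and 0 in the others, so the gap took up the whole range (ratio 1). In wild type Map1a stood at 1060 CPM in WT5 and 771 to 863 CPM elsewhere (ratio 0.683). WT5 was also the highest wild-type library for Map1b, at 614 CPM. The largest gap among the members was Ank2 in KO5, at a ratio of 0.603.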

How the results depend on the processing

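Across 23 alternatives (other scalings, filters and tools, robust fitting, 3 covariates, the replicate block and each library left out), 0 of the 9 mRNAs passed the adjusted threshold, and the direction held in all but 3 of 207 comparisons: Dgkz was 0.031 with the CA1 score as a covariate, and Ptpn5 was 0.042 with the non-neuronal score and ranged from -0.10 to 0.0092 with a library left out. The median log2 fold change of the 9 stayed between -0.11 and -0.05. Without single libraries, 1 to 4 members had an unadjusted p under 0.05 (1 without KO3, KO5, WT3 or WT5). The share of all genes at that level was not counted for these fits, so the counts have no background beside them. The 4 genes called overall became 84 in DESeq2 (53 lower, 31 higher), 2 with the CA1 score, 1 with the non-neuronal score and 12, all lower, with the length measure, and 2 to 6 with a library left out (2 to 5 lower, 0 to 1 higher). The other FMRP targets lower at an unadjusted p under 0.05 were 13, but 8 with the CA1 score, 6 with the non-neuronal score and 8 without KO1. For these fits too the share of all genes was not counted. Signs of list genes near 0 turned. With library size alone Mapt was 0.00487, Aplp1 0.012, Herc1 0.014 and Ube3a 0.016. With the CA1 score Aplp1 was 0.106, Unc13a 0.018 and Herc1 0.018, and with the non-neuronal score Map2 0.00262, Mapt 0.039, Aplp1 0.027, Unc13a 0.023 and Herc1 0.048. With the length measure Map2 was 0.0083, Bace1 0.025, Rims1 0.071, Erc2 0.023 and Ube3a 0.057. With a library left out Mapt ranged from -0.037 to 0.0077, Aplp1 from -0.056 to 0.037, Rims1 from -0.145 to 0.026, Herc1 from -0.035 to 0.037 and Ube3a from -0.055 to 0.051. Their causes were not tested. The labels do not say whether same-numbered pools were paired, and the counts do not decide it. Over all genes the mean correlation of same-numbered deviations was 0.02, with 0 of 6 pairs over 0.1. Over genes with at least 50 CPM it was 0.16, from -0.47 to 0.61, with 3 pairs over 0.1. With the replicate block 4 genes and 0 members passed, Map1b at -0.21 and Ank2 at 0.24. Depth was no limit for these mRNAs, while with 6 pools per genotype the 95% intervals of all members but Map1b, Nf1 and Ank2 included 0.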
